A study of Mus musculus with 32 samples.

Results

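The comparison described here is the response of CD4+ T cells of wild-type mice, which comprise helper and regulatory cells, to stimulation through CD3 and CD28 for 12 h. It uses 8 of the 32 libraries of the series, 4 unstimulated and 4 stimulated, which were chosen by their labels alone, and it covers 24302 genes, of which 12332 had enough counts to be tested. All 8 libraries carry the wild-type genotype of a series on the nuclear receptor Nur77 (the gene Nr4a1), and came from C57BL/6J mice. The CD4+ cells were purified from the spleen and the inguinal and axillary nodes. Stimulated cells received antibodies to CD3 and CD28 and no inhibitor, and the unstimulated libraries are those labelled control. No time in culture is recorded for the control libraries, so stimulation and 12 h in culture cannot be told apart. The labels give neither the age of the mice nor whether the 4 libraries of a group are separate animals or cultures, so a p-value here reflects only how far these libraries differ, and that spread may be technical. The libraries held 16938473 to 21596749 counts in genes, with 13925 to 14687 genes detected. The remaining groups of the series (knockout cells and cells stimulated with an inhibitor) enter only to share the estimate of spread and to choose a set of reference genes.

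A T cell is activated when its receptor, whose signal runs through the CD3 chains and the kinase ZAP70, is engaged together with the costimulatory receptor CD28. The calcium branch of this signal brings NFAT factors into the nucleus, and the kinase branches act on AP-1 and NF-kappaB factors, which together switch on genes such as that of interleukin-2. Over the following hours a resting cell enlarges, builds ribosomes, raises its metabolism and leaves the resting phase of the cell cycle, while factors of the resting state such as FOXO1 and KLF2 lose activity.

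The T cell identity of the libraries was checked first. Cd4 stood at 741 ± 68.4 CPM (counts scaled to library size and by TMM, a correction for library composition) in unstimulated and 531 ± 55.7 CPM in stimulated libraries (SD, n = 4 each), and Cd3e at 377 ± 15.4 and 254 ± 24.5 CPM. The CD8 T cell gene Cd8a was near 6 CPM in both, 6.06 ± 1.03 and 6.37 ± 0.702 CPM, while Cd8b1 fell from 25.7 ± 1.98 to 16 ± 1.32 CPM (adjusted p = 0.00067). Genes of macrophages were also present before stimulation. The iron exporter gene Slc40a1 stood at 1143 ± 169 CPM and the complement gene C1qa at 369 ± 56.7 CPM. The B cell genes Cd79b and Ms4a1 stood at 54.6 ± 12.8 and 38.1 ± 10.8 CPM.

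How much of the unstimulated profile remained in each stimulated library was measured with 112 reference genes. These had at least 10 CPM in unstimulated cells and at most 2% of that level in each of the 5 other stimulated groups of the series, and no stimulated wild-type library was used to choose them. Against the mean of the 4 unstimulated libraries, their summed level remained at 0.161, 0.465, 0.221 and 0.216 in stimulated replicates 1 to 4. In the 20 libraries of the 5 other stimulated groups it was 0.00135 to 0.00563, a low level that the rule of choice itself requires. The library numbers in the titles fall into runs of 4 consecutive numbers, each with 1 unstimulated and 1 stimulated library. Against the unstimulated library of the same run the shares were 0.204, 0.349, 0.287 and 0.195, and the single genes lay closer together. Their interquartile range was 7.52% to 12.9% of the median, against 15.9% to 41.9% with the mean of 4 as the denominator. Stimulated replicate 2 gave the highest same-run ratio for 110 of the 112 genes.

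Markers of other cell types stood at or above this share. Macrophage and monocyte markers summed to 0.207, 0.351, 0.289 and 0.197 of the unstimulated library of the same run, close to the share in each library, whereas in stimulated knockout libraries the sum was 0.012 to 0.0213 of the mean of the unstimulated knockout libraries. Of these markers 15 are reference genes, which define the share. Reference genes had to be low in the stimulated knockout group too, so the low knockout sum follows in part from that choice. The knockout sum was not split by reference genes. In the stimulated wild-type libraries the sum of the 9 other markers stood at 0.218, 0.351, 0.292 and 0.2. All 23 macrophage markers tested fell. Neutrophil markers were at 0.221, 0.372, 0.263 and 0.205, although their unstimulated sum ranged from 30.3 to 237 CPM between runs. Stromal and endothelial markers were at 0.275, 0.394, 0.325 and 0.241. This sum is mostly Pecam1, at 169 of the 208 CPM of the tested members in unstimulated cells. Of the 13 members 5 had at least 1 CPM there, and Col14a1 is a reference gene. B cell markers, summed over 18 genes, were above the share, at 0.524, 0.587, 0.563 and 0.535, and at 0.354, 0.473, 0.418 and 0.343 without Pou2af1, which rose. Of the 6 B cell markers of at least 10 CPM that fell, 5 stood within 1.25 times the share. CD8 T cell markers were at 0.665, 0.732, 0.665 and 0.608. Of the erythroid and platelet list, 6 haemoglobin genes had no count. Their part in the results that follow was not tested. In bulk RNA, fewer cells of a type and less RNA per cell cannot be told apart.

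**Figure D1:**
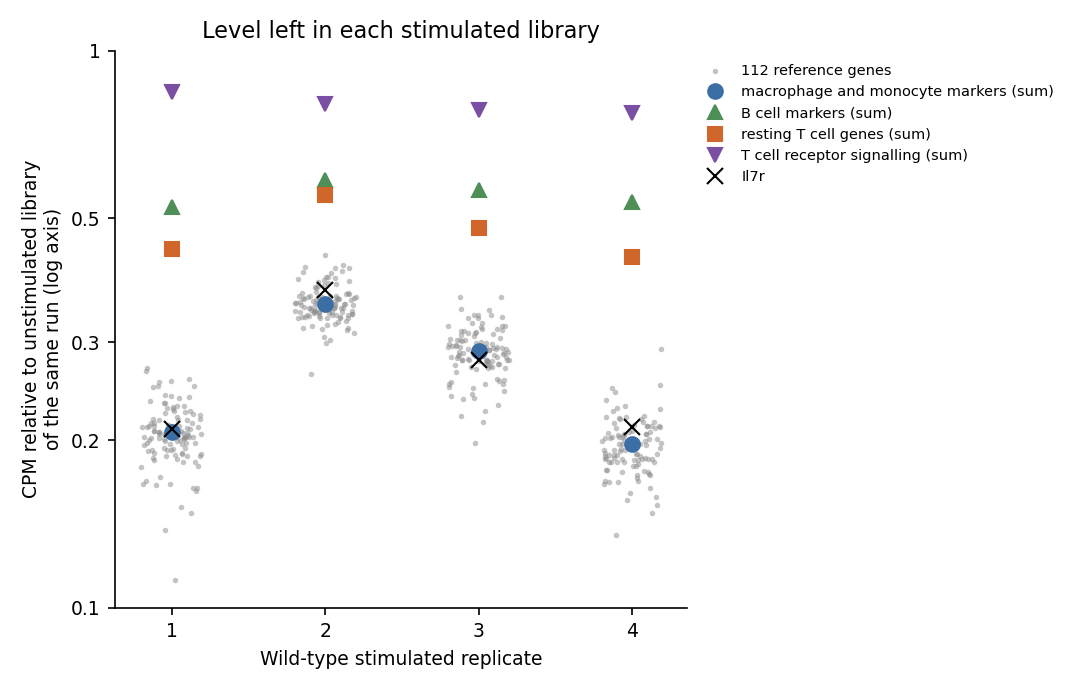
Level in each of the 4 stimulated wild-type libraries (x axis) relative to the unstimulated library of the same run (y axis, log scale, library-total CPM), with 112 reference genes as grey points, sums of 4 gene lists as symbols and Il7r as crosses. The reference genes, the macrophage markers (15 of them reference genes) and Il7r lie together near 0.204, 0.349, 0.287 and 0.195, and the B cell, resting T cell and receptor signalling lists lie above them.

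Each list is therefore also given with the same-run share of the same-run unstimulated profile subtracted from each stimulated library. Whether the share comes from unstimulated cells or RNA in these libraries was not tested, and the subtraction shows only what the values would be if it did. This left 79.6%, 65.1%, 71.3% and 80.5% of the counts of stimulated replicates 1 to 4 and set 671 to 1103 genes to 0. The fitted fold change of a gene set to 0 depends on the prior count and is not a bound.

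Most of the transcriptome differed between stimulated and unstimulated libraries. Of 12332 genes tested, 9037 changed (73.3%, edgeR quasi-likelihood test, Benjamini-Hochberg adjusted p under 0.05). Of these 4254 rose (34.5% of those tested) and 4783 fell (38.8%), and the log2 fold change over all tested genes had a median of -0.11. The groups did not overlap for 3685 of the rises and 3649 of the falls. With the share subtracted, 4589 of 12311 genes rose (37.3%) and 5334 fell (43.3%). The 4254 rises were all among the rises with the share subtracted, 4773 of the falls were again called as falls, and no call turned. Upper-quartile scaling shifted the median over all tested genes by -0.22 (log2) and gave 3396 rises and 5934 falls, so that rises made up 36.4% of calls instead of 47.1%.

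Rises and falls were of very different size in the deposited counts. At least 4-fold changes numbered 514 rises and 147 falls, and at least 16-fold changes 80 rises and 0 falls. The largest fall among genes of at least 10 CPM in unstimulated cells was 4.49-fold, and a level at the mean of the 4 same-run shares would be a 3.86-fold fall. With the share subtracted there were 817 rises and 2208 falls of at least 4-fold, and 111 rises and 764 falls of at least 16-fold. Of 346 rises of at least 4-fold, at least 10 CPM and no overlap, 299 were lowest in stimulated replicate 2, the library with the highest share. In stimulated replicates 1, 3 and 4 the numbers were 3, 13 and 31. The same count over all tested genes was not made, and the cause was not tested. The median SD of these 346 rises over the 4 stimulated libraries was 0.22 on the log2 scale, and 0.16 with the share subtracted. The subtraction itself raises such values most in replicate 2, where the fewest counts were left.

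**Figure D2:**
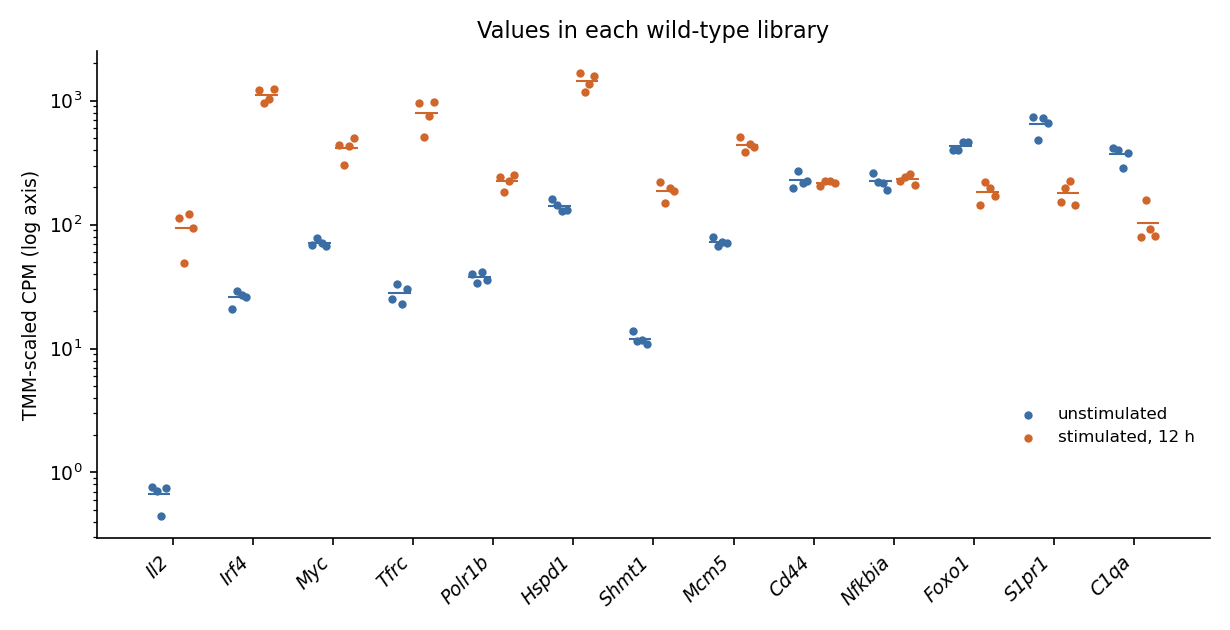
TMM-scaled CPM (y axis, log scale) of 13 genes (x axis) in the 4 unstimulated and 4 stimulated wild-type libraries, each point 1 library and each bar the mean of 4. Il2 is the farthest apart, from 0.445 to 0.764 CPM to 49.2 to 121 CPM, Cd44 and Nfkbia overlap between groups, and in Foxo1, S1pr1 and C1qa all stimulated libraries are below all unstimulated ones.

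Transcription factor genes downstream of the receptor were mostly high at 12 h. Of 25 early factor genes 18 rose and 5 fell, with a median log2 fold change of 1.21 (1.50 with the share subtracted) against -0.11 (-0.14) over all genes. The list does not hold Fos, which fell and is given below. Irf4 (chromosome 13, 30749233 to 30766981), a factor whose level follows the strength of receptor signalling, stood at 21, 29.2, 27.1 and 26.1 CPM in the unstimulated libraries and at 1210, 960, 1024 and 1244 CPM in the stimulated ones. The groups lay far apart, 42.9-fold (log2 fold change 5.42, SE 0.14, adjusted p = 9.4e-22). Myc, which drives growth and ribosome production, stood at 67.5 to 77.3 CPM before and at 438, 303, 430 and 500 CPM after stimulation, 5.86-fold higher (adjusted p = 1.9e-15). Fosl1, an AP-1 subunit, had 1 count in the 4 unstimulated libraries together and stood at 15.7, 5.61, 13 and 17.4 CPM afterwards. Nfkb2, an NF-kappaB subunit gene, rose from 67.5 ± 6.75 to 240 ± 40.3 CPM.

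The Nr4a receptors, which receptor signals induce, also rose. Nr4a1 stood at 45.2, 96.1, 66.7 and 78.6 CPM before and 130, 153, 175 and 207 CPM after stimulation, so it was already well expressed in unstimulated cells (log2 fold change 1.21, SE 0.23, adjusted p = 3.7e-05). Nr4a2 and Nr4a3 started lower, at 1.02 ± 0.398 and 6.01 ± 1.42 CPM, and rose by 3.60 and 3.33 on the log2 scale (adjusted p = 8.7e-11 and 5.2e-15). Immediate early genes of the AP-1 and EGR families went both ways. Egr2 and Egr3 rose to 52.3 ± 5.93 and 72.2 ± 3.77 CPM, by 1.98 and 1.20 on the log2 scale (adjusted p = 2.6e-12 and 9.9e-07). Fos, the founding AP-1 subunit gene, was at 0.206, 0.355, 0.313 and 0.206 of the unstimulated library of the same run, close to the share in each library. Junb fell from 1772 ± 705 to 643 ± 159 CPM and Egr1 from 104 ± 27.8 to 63 ± 20.7 CPM, both to same-run ratios above the share. Batf and Nfatc1 were not called (0.18 and 0.21 on the log2 scale, adjusted p = 0.48 and 0.11). With the run as a replicate block they were called at 0.27 and 0.29 (adjusted p = 0.046 and 0.018), whereas under upper-quartile scaling they stood at -0.05 and -0.01.

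Among 23 cytokine genes tested, 15 rose and 4 fell, with a median log2 fold change of 2.02 (2.38 with the share subtracted). Il2 (chromosome 3, 37120713 to 37125954), the main growth factor of T cells, stood at 0.764, 0.711, 0.445 and 0.751 CPM in unstimulated cells. After stimulation it stood at 113, 49.2, 121 and 94.1 CPM, with the lowest value in stimulated replicate 2, 139-fold higher overall (log2 fold change 7.12, SE 0.51, adjusted p = 6e-13). Il3, a growth factor for blood cells, had no count in the unstimulated libraries and stood at 8.96, 2.86, 8.53 and 15.9 CPM after stimulation, at least 233-fold higher against 3 counts over the group. Il5, a growth factor for eosinophils, likewise had no count before and was at 0.757 ± 0.25 CPM after, at least 19.5-fold higher. Ifng, the interferon of helper T cells, rose from 5.01 ± 0.784 to 49.5 ± 17.3 CPM, and Tnf from 6.4 ± 0.519 to 33.8 ± 8.07 CPM. Lif, a cytokine of the interleukin-6 family, rose from 1.64 ± 0.259 to 25.1 ± 5.86 CPM, and Lta, which encodes lymphotoxin alpha, from 15.6 ± 1.32 to 60.8 ± 17.1 CPM. The death ligand gene Fasl rose by 1.89 on the log2 scale (adjusted p = 5.3e-09). With the run as a replicate block 10 cytokine genes rose, of 18 that passed the filter on low counts in these 8 libraries alone.

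Several cytokines of type 2 and type 17 helper cells rose from almost no counts to low levels. Il13 stood at 0.0475 ± 0.0348 CPM before and 1.53 ± 0.483 CPM after stimulation (adjusted p = 0.0002), Il17f at 0.0104 ± 0.0209 and 0.993 ± 0.381 CPM (adjusted p = 5.7e-06). Il17a and Il22 were called as rises to 0.616 ± 0.369 and 0.311 ± 0.0845 CPM. Il4 was at 0.702 ± 0.225 CPM before and 0.769 ± 0.266 CPM after stimulation, Il10 at 2.13 ± 0.86 and 1.74 ± 0.515 CPM, and Il21 at 4.35 ± 3.09 and 3.16 ± 1.2 CPM, and none of these genes was called. The 4 genes that fell were Il16, Ltb, Osm and Tgfb1. Ltb, the lymphotoxin beta gene of resting lymphocytes, fell from 854 ± 185 to 339 ± 57.7 CPM, and Il16 from 358 ± 38 to 141 ± 39.8 CPM.

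The region just before the start of Il2 shows the letters that NFAT factors are known to bind. The 250 bases before the RefSeq start (GRCm38.p6, chr3:37125955-37126204, minus strand) are printed here, 5′ to 3′ on the gene's strand, with matches to GGAAA on either strand in capitals.
Il2: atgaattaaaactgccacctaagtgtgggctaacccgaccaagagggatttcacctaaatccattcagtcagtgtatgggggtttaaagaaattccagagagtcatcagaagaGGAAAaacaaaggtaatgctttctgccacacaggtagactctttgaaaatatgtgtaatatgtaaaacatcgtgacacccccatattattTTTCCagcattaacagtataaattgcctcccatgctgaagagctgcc
There were 2 matches in Il2. The letters were found in 19 of 21 cytokine promoters of this length (90.5%) and in 5557 of 9393 promoters of tested genes (59.2%), and so short a motif is common by its length. The AP-1 letters TGANTCA were found in 4 of the 21 cytokine promoters and in 5.36% of all. These are descriptions of letters and not of binding.

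Chemokine genes had the highest median of the lists tested, 3.36 (3.80 with the share subtracted), with 8 of 11 rising and 1 falling. Ccl4, an inflammatory chemokine, stood at 1.52 to 1.97 CPM before and at 104, 36.2, 129 and 107 CPM after stimulation, 5.82 on the log2 scale (SE 0.58, adjusted p = 7e-10). Ccl3, its close relative, rose by 4.48 and Ccl1, a ligand of CCR8, by 6.19 on the log2 scale (adjusted p = 6.5e-10 and 4.5e-15). Ccl22, a ligand of CCR4 that activated dendritic cells make in quantity, stood at 0.382 to 0.711 CPM before and at 80.7, 144, 94.6 and 53.9 CPM after. Unlike Il2 and Ccl4 it was highest in stimulated replicate 2. The receptor genes Ccr4 and Ccr8 themselves rose by 2.16 and 2.55 on the log2 scale (adjusted p = 2.5e-06 and 1.3e-08). The exception was Ccl5, a chemokine of memory and cytotoxic T cells, which was at 0.215, 0.366, 0.309 and 0.245 of the same-run unstimulated level, close to the share.

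Receptors that mark activated T cells rose in 15 of 25 cases and fell in 2 (median 0.99, 1.27 with the share subtracted). With the run as a replicate block 18 rose and 1 fell. The call that the block ended was that of Il2rg, the shared gamma chain of cytokine receptors, at 644 ± 32.6 and 586 ± 7.12 CPM (-0.14, adjusted p = 0.028, and -0.06, adjusted p = 0.48, with the block). Without stimulated replicate 4 or unstimulated replicate 1 it was not called either (-0.13 and -0.03, adjusted p = 0.057 and 0.7). Tfrc, the transferrin receptor that imports iron, stood at 25.2, 33.1, 23 and 30.1 CPM before and 951, 510, 759 and 975 CPM after stimulation, 28.6-fold higher (adjusted p = 1.4e-14). Tnfrsf9, the costimulatory receptor 4-1BB, rose from 37.2 ± 4.1 to 349 ± 36.5 CPM, and Cd200 from 28.5 ± 4.82 to 241 ± 43.4 CPM. Il2ra, the interleukin-2 receptor alpha chain, stood at 42.6 to 77.7 CPM before and 312 to 413 CPM after, and Cd69, an early activation marker, at 92.4 to 183 and 307 to 363 CPM. Other receptors did not pass the test. Cd44, used as a marker of activated and memory T cells, overlapped between the groups, at 228 ± 29.6 and 217 ± 9.56 CPM (log2 fold change -0.07, SE 0.16, adjusted p = 0.71), as did Il2rb at 303 ± 46 and 309 ± 45.9 CPM.

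Inhibitory receptors went both ways, with 4 of 11 rising and 6 falling, against 34.5% and 38.8% of all tested genes. Lag3, Pdcd1 (PD-1) and Btla, receptors that restrain activated T cells, rose to 132 ± 17.8, 107 ± 27.3 and 290 ± 32.1 CPM, by 2.20, 2.03 and 1.55 on the log2 scale (adjusted p = 7.3e-09, 2.3e-07 and 8.9e-11). Tigit was not called (log2 fold change 0.50, adjusted p = 0.096) but was with the run as a replicate block (0.58, adjusted p = 0.0015). Of the 4 falling genes of at least 10 CPM, Cd200r1 and Lair1 stood within 1.25 times the share, as did Cd244, which is a reference gene.

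Of 21 feedback regulators of signalling 8 rose and 8 fell, near the shares of all tested genes (34.5% and 38.8%). Their median of 0.19 turned to -0.04 under upper-quartile scaling. The rises included brakes on the kinase branch and on cytokine signalling. Spry1, an inhibitor of Ras signalling, stood at 11.3 to 16.4 CPM before and 254, 155, 244 and 270 CPM after stimulation (log2 fold change 4.08, SE 0.26, adjusted p = 5.6e-14). The MAP kinase phosphatase genes Dusp4 and Dusp5 rose by 2.74 and 2.22 on the log2 scale (adjusted p = 1.3e-10 and 5.6e-10). Cish and Socs1, inhibitors of cytokine signalling, rose by 1.66 and 0.80, and Cblb, a ubiquitin ligase that restrains receptor signalling, by 1.05 on the log2 scale (adjusted p = 1.1e-08, 0.00065 and 3.9e-05). Other members of the same families fell. Dusp10, another MAP kinase phosphatase gene, fell by 1.11 on the log2 scale (adjusted p = 7.2e-05). Dusp1, of the same family, was at 0.217, 0.359, 0.337 and 0.219 and Socs3 at 0.231, 0.468, 0.327 and 0.241 of the same-run unstimulated level, both near the share. Nfkbia, the inhibitor of NF-kappaB, stood at 223 ± 30.6 and 232 ± 20.5 CPM (adjusted p = 0.67).

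**Figure D3:**
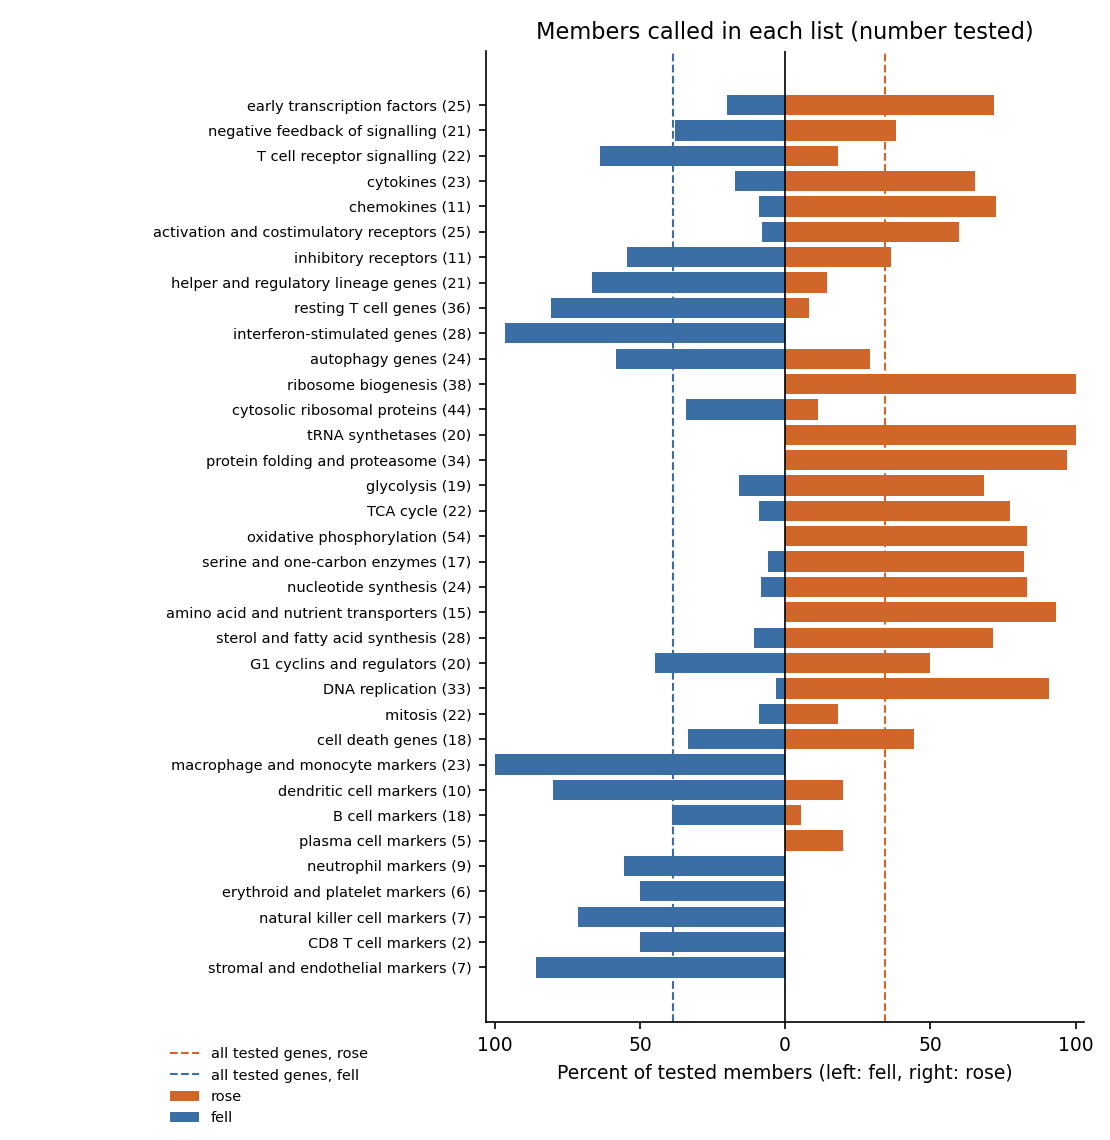
Percent of the tested members of each of 35 gene lists that rose (right) or fell (left), with the number tested in parentheses. Dashed lines mark the shares of all 12332 tested genes, 34.5% rising and 38.8% falling, and ribosome biogenesis and tRNA synthetase genes reach 100% on the right and macrophage markers 100% on the left.

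Genes of protein production rose as groups. All 38 ribosome biogenesis genes rose, by 0.59 to 2.65 on the log2 scale, with a median of 2.09 (2.45 with the share subtracted). Polr1b, a subunit of the polymerase that transcribes ribosomal RNA, stood at 40.3, 33.5, 41.4 and 35.9 CPM before and 243, 183, 224 and 251 CPM after stimulation, 5.97-fold higher (adjusted p = 1.8e-18). Nop58 and Gar1, proteins of the small nucleolar ribonucleoproteins, and Wdr12, which matures the large subunit, rose by 2.55, 2.53 and 2.42 on the log2 scale. All 20 aminoacyl-tRNA synthetase genes rose, with a median of 1.51, among them Mars and Rars by 1.98 and 1.96. Of 34 chaperone and proteasome genes 33 rose (median 1.54) and Pdia4 was not called. Hspd1, the mitochondrial chaperonin HSP60, stood at 160, 145, 128 and 132 CPM before and 1677, 1172, 1354 and 1595 CPM after, 10.3-fold higher (adjusted p = 8.4e-20). E-box letters CACGTG, the site MYC is known to bind, were found in 2 of 33 ribosome biogenesis promoters (6.06%), in 3 of 12 tRNA synthetase promoters (25%), in 11.4% of those of all rises and in 9.96% of all promoters of tested genes.

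The largest gains in CPM were in this class too. Hsp90ab1, a cytosolic chaperone, gained the most, from 1535 ± 251 to 5014 ± 756 CPM, followed by the translation factor gene Eif5a (680 ± 185 to 3741 ± 436 CPM). The nucleolar protein genes Npm1 and Ncl rose to 3370 ± 381 and 2397 ± 630 CPM. Genes of the ribosome itself behaved differently from those that build it. Of 44 cytosolic ribosomal protein genes 5 rose, 15 fell and 24 were not called, with a median log2 fold change of -0.22, which was 0.05 without unstimulated replicate 1. That replicate was the highest of the 4 for Rpl12, at 6474 CPM against 3409 to 4866 CPM. Rpl12 fell by 0.57 on the log2 scale (SE 0.18, adjusted p = 0.0059), and by 0.28 without that replicate (adjusted p = 0.13). Genes with near-identical copies, such as Rpl30 at 0.908 ± 0.242 CPM and the glycolysis gene Gapdh at 0.843 ± 0.35 CPM, were counted far below the other members, and their values are uncertain.

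Metabolic enzymes rose broadly. Of 19 glycolysis genes 13 rose and 3 fell (median 1.12). Hk2, the inducible hexokinase, rose from 5.34 ± 1.88 to 70.4 ± 20.7 CPM (log2 fold change 3.70, adjusted p = 5.9e-12). Hk1, the constitutive hexokinase, fell from 140 ± 24.2 to 99.5 ± 15.2 CPM. Pgam1 and the lactate transporter gene Slc16a1 rose by 2.70 and 2.95 on the log2 scale, and Ldha, lactate dehydrogenase, rose from 711 ± 192 to 2327 ± 301 CPM. The glucose transporter gene Slc2a1 was among the 13 rises, whereas Slc2a3, another glucose transporter gene, fell from 72.7 ± 5.07 to 48.5 ± 3.61 CPM. Pdk1, a kinase that inhibits pyruvate dehydrogenase, fell from 361 ± 45.2 to 181 ± 23 CPM.

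Mitochondrial genes rose less. Of 54 oxidative phosphorylation genes 45 rose, 0 fell and 9 were not called, with a median of 0.73 (0.96 with the share subtracted). Atp5b, the catalytic subunit of ATP synthase, rose from 1206 ± 266 to 2788 ± 241 CPM and Cycs, cytochrome c, from 19.6 ± 4.59 to 72.4 ± 5.28 CPM. Of 22 genes of the tricarboxylic acid cycle 17 rose, with a median of 0.47, Idh3a by 1.39 on the log2 scale, while Idh2 fell by 0.60 (adjusted p = 1.2e-12 and 9.5e-05).

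The serine and one-carbon list and the nucleotide synthesis list rose more strongly. Of 17 genes in the serine and one-carbon list 14 rose (median 1.56). That list also holds the amino acid enzyme genes Bcat1 and Asns, both among the 14 rises. Shmt1, which moves a carbon from serine to folate in the cytosol, stood at 13.8, 11.5, 11.8 and 10.8 CPM before and 219, 149, 197 and 187 CPM after stimulation, 15.8-fold higher (adjusted p = 8.4e-20). Shmt2, its mitochondrial relative, rose by 2.60 on the log2 scale and Mthfd1 from 58.3 ± 2.76 to 249 ± 38.3 CPM (adjusted p = 5.1e-18 and 1.2e-15). Bcat1, an aminotransferase of branched-chain amino acids, stood at 1.56 to 2.18 CPM before and 268, 139, 235 and 247 CPM after. Of 24 nucleotide synthesis genes 20 rose and 2 fell (median 1.27), with Ctps, CTP synthase, up by 2.88 and Dck, a salvage kinase, down from 117 ± 11.7 to 57.5 ± 8.45 CPM. Of 15 amino acid and nutrient transporters 14 rose (median 1.48), among them Slc7a5, the large neutral amino acid transporter, from 90.2 ± 31.7 to 394 ± 69.8 CPM.

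Lipid synthesis genes mostly rose. Of 28 genes 20 rose and 3 fell (median 1.14). The sterol enzymes Cyp51 and Lss rose by 2.79 and 2.12 on the log2 scale (adjusted p = 8.9e-16 and 1.1e-14). Of the fatty acid synthesis genes, Acaca, which makes malonyl-CoA, and Fasn, fatty acid synthase, rose by 2.47 and 2.14 on the log2 scale (adjusted p = 3.7e-10 and 3.2e-11). The 3 falls were the fatty acid desaturases Scd1 and Scd2, at -1.46 and -0.79, and Srebf1, a regulator of fatty acid synthesis, at -0.40 (adjusted p = 0.015, 0.0057 and 4.5e-05).

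Cell cycle genes separated by phase. Of 20 G1 genes 10 rose and 9 fell. Ccnd2, cyclin D2, stood at 475 to 526 CPM before and 1503, 1276, 1388 and 1706 CPM after stimulation, and its partner kinases Cdk4 and Cdk6 rose by 1.82 and 2.74 on the log2 scale (adjusted p = 2e-12 and 1e-13). Ccnd1, cyclin D1, was at the share, with same-run ratios of 0.212, 0.374, 0.277 and 0.185. Cdkn1b (p27), an inhibitor that holds resting cells in G1, fell from 174 ± 5.83 to 59.2 ± 17 CPM. Its same-run ratios of 0.253, 0.418, 0.35 and 0.257 were on average within 1.25 times the share. Cdkn1a (p21), the related inhibitor, rose from 1.89 ± 0.592 to 34.6 ± 5.94 CPM. Of 33 DNA replication genes 30 rose (median 1.62). Mcm5, a subunit of the replicative helicase, stood at 67.4 to 80 CPM before and 507, 387, 445 and 425 CPM after (6.07-fold, adjusted p = 8.8e-15), and Orc1, the origin recognition subunit, rose from 0.62 ± 0.0881 to 17.6 ± 4.22 CPM.

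Mitosis genes had moved little at 12 h. Of 22, 4 rose, 2 fell and 16 were not called, with a median of -0.23. Top2a stood at 19.5 ± 8.25 and 20.3 ± 4.87 CPM (adjusted p = 0.93), and Ccna2, cyclin A2, at 9.11 ± 1.28 and 8.71 ± 1.77 CPM (adjusted p = 0.89). Mki67, the Ki-67 gene, stood at 0.701, 10.6, 3.11 and 9.18 CPM before and 1.76, 5.22, 1.35 and 4.1 CPM after stimulation, a spread between runs that is wider than the difference between groups (adjusted p = 0.22). With the run as a replicate block it was called as a fall of 0.75 on the log2 scale (adjusted p = 0.047), and the list had 6 rises and 7 falls. Rrm2, the ribonucleotide reductase subunit of S phase, was not called (0.54, adjusted p = 0.14) but was with the block (0.60, adjusted p = 0.0013).

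Survival genes did not move as a group. Of 18 cell death genes 8 rose and 6 fell, against 34.5% and 38.8% of all tested genes. Their median of 0.06 was -0.04 with DESeq2 size factors or library totals and -0.17 under upper-quartile scaling. Bcl2l1, the survival factor BCL-XL, stood at 27.8 to 35.3 CPM before and 247, 196, 276 and 229 CPM after stimulation (log2 fold change 2.87, SE 0.13, adjusted p = 4.7e-17), while the related survival gene Bcl2, active in resting lymphocytes, fell from 143 ± 28.9 to 65.9 ± 19.2 CPM. Lineage genes of helper and regulatory T cells, factors and receptors together, were mostly lower, 14 of 21 falling and 3 rising, and with the run as a replicate block 15 of 20 falling and 5 rising. The rises were the chemokine receptor genes Ccr4 and Ccr8, given above, and Tbx21, the T-bet factor of type 1 helper cells, at 8.15 to 11.2 CPM before and 56.3 to 65.7 CPM after (adjusted p = 2.6e-08). Foxp3, the factor of regulatory T cells, fell from 65.2 ± 11.1 to 32.7 ± 8.49 CPM. Gata3 was not called (-0.58, adjusted p = 0.073), but was with the run as a replicate block (-0.50, adjusted p = 0.00081) and without stimulated replicate 2 (-0.74, adjusted p = 0.041).

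Genes of the resting T cell fell in 29 of 36 cases, with a median log2 fold change of -1.22 (-2.23 with the share subtracted). Of the 28 falls of at least 10 CPM, 14 stood within 1.25 times the share, 12 between 1.25 and 2 times and 2 higher. S1pr1, the receptor that lets T cells leave lymphoid tissue (chromosome 3, 115710433 to 115715055), stood at 743, 482, 720 and 658 CPM before and 151, 199, 223 and 145 CPM after stimulation. Its same-run ratios of 0.209, 0.369, 0.289 and 0.205 were close to the share, and S1pr1 is not a reference gene. Il7r, the interleukin-7 receptor that sustains resting T cells, was at 0.209, 0.372, 0.279 and 0.211, and Pik3ip1, an inhibitor of PI3 kinase, at 0.208, 0.355, 0.293 and 0.201. The fold changes of S1pr1, Il7r and Pik3ip1, 3.62, 3.24 and 3.31, are those of genes at the retained share, and whether they fell further in responding cells was not tested.

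Other resting genes stayed clearly above the share. Foxo1 (chromosome 3, 52268337 to 52350109) stood at 399, 403, 461 and 461 CPM before and 144, 222, 197 and 169 CPM after stimulation, with same-run ratios of 0.37, 0.492, 0.397 and 0.342 (log2 fold change -1.24, SE 0.13, adjusted p = 3e-09). With the share subtracted the log2 fold change was -2.27. Lef1 and Tcf7, partner factors of naive T cells, fell by 1.17 and 1.14 on the log2 scale, and by 2.13 and 2.00 with the share subtracted. The 3 resting genes that rose were Bach2, a repressor of effector genes, Slfn2 and the homing receptor gene Ccr7. Bach2 rose from 81.2 ± 18.2 to 206 ± 38.6 CPM (log2 fold change 1.34, adjusted p = 2.3e-08), and Ccr7 stood at 755, 510, 691 and 605 CPM before and 844, 916, 1016 and 754 CPM after, so that the lowest stimulated value lay just below the highest unstimulated one (0.46, adjusted p = 0.0054, and 0.32, adjusted p = 0.052, without unstimulated replicate 2). Satb1, Foxo3, Foxp1 and Il6st were not called, and Foxp1 and Foxo3 were with the run as a replicate block (0.45 and -0.26, adjusted p = 0.015 and 0.02). Foxp1 was also called without unstimulated replicate 2 (0.45, adjusted p = 0.028).

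**Figure D4:**
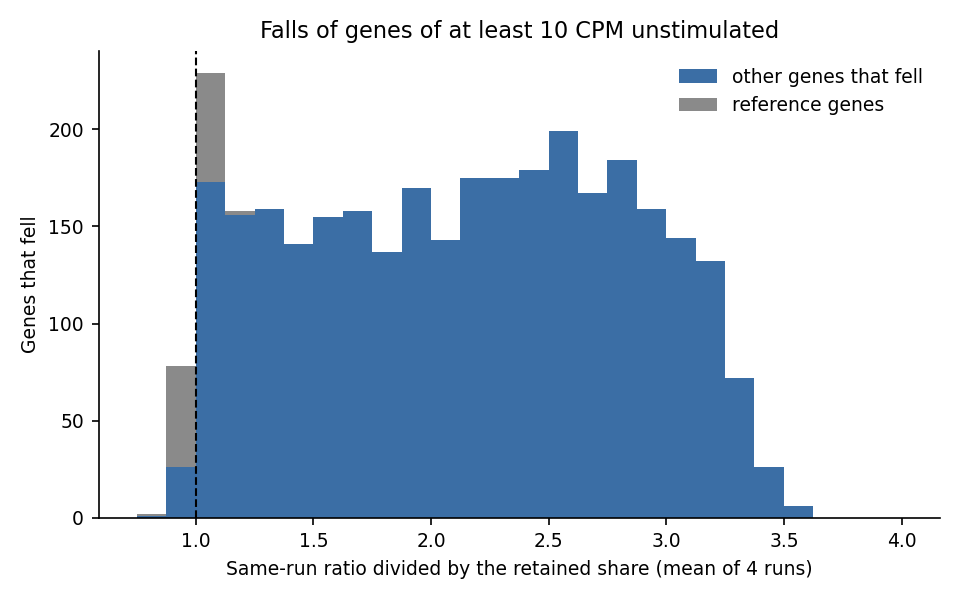
Number of genes (y axis) among the falls of at least 10 CPM unstimulated, by the same-run ratio divided by the retained share, averaged over 4 runs (x axis), with reference genes in grey and the share itself as the dashed line at 1. Of 3149 such falls 467 lie between 0.75 and 1.25 and the lowest value is 0.832, and 1 gene at 4 or more is not drawn.

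Across all genes, 3149 of the falls had at least 10 CPM in unstimulated cells, and in the plot of falls by their distance from the share the distribution ended at it. In 467 the same-run ratio was 0.75 to 1.25 times the share, and 356 of these were not reference genes. In 920 the ratio was 1.25 to 2 times the share, in 1381 it was 2 to 3 times and in 381 at least 3 times. No fall was under 0.75 times the share. Of the 467 genes at the share 437 had their highest same-run ratio in stimulated replicate 2, and 1941 of all 3149 did. The 12 largest falls by the deposited counts include the macrophage genes Marco, Cd5l and Ccl6 and the terminal transferase gene Dntt, at -2.09, -1.95, -1.98 and -1.99 on the log2 scale, and each of these 4 was at about the share, which Marco, Cd5l and Dntt help to define as reference genes. Ccl6 was no longer called without unstimulated replicate 1 (-1.59, adjusted p = 0.058).

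Interferon-stimulated genes fell in 27 of 28 cases and rose in 0, with a median of -1.46 (-2.95 with the share subtracted), and Bst2 was the member not called (77.4 ± 22.6 and 78.2 ± 8.94 CPM). Without unstimulated replicate 1, the highest of its group at 111 CPM, Bst2 was called at 0.33 on the log2 scale (adjusted p = 0.0051). Type I interferon is known to switch these antiviral genes on through JAK kinases and STAT factors, and the unstimulated cells expressed them at a basal level. Ifit1 stood at 28.8, 33.7, 26.4 and 27.3 CPM before and 7.96, 16.9, 8.78 and 7.51 CPM after stimulation, with same-run ratios of 0.284, 0.45, 0.309 and 0.256, above the share. Isg15, a ubiquitin-like modifier, stood at 57.2, 25.6, 25.2 and 27.5 CPM before and 15.2, 17, 13 and 11.8 CPM after. Ddx58, the RNA sensor RIG-I, and Rtp4 were at the share, the first at 0.195, 0.359, 0.298 and 0.224. Of the 22 falls of at least 10 CPM in this list 8 were within 1.25 times the share, 10 between 1.25 and 2 times and 4 higher.

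The promoters of 2 of these genes show the interferon-stimulated response element, the letters GAAANNGAA, on 1 strand or the other. The 250 bases before the RefSeq start of Ifit1 (GRCm38.p6, chr19:34640639-34640888, plus strand) and Isg15 (chr4:156200819-156201068, minus strand) are printed 5′ to 3′ on the gene's strand, with matches in capitals.
Ifit1: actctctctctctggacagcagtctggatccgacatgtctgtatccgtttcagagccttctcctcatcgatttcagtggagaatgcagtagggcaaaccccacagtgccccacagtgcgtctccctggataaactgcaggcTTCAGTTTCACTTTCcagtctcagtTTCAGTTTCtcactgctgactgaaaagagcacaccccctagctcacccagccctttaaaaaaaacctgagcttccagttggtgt
Isg15: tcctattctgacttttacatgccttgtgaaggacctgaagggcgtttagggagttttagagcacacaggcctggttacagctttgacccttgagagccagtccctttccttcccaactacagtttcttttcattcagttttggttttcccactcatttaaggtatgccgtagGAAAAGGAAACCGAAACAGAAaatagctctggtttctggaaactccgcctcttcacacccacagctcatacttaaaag
Each holds 3 matches, some of which overlap. The letters were found in 10 of 19 promoters of the list (52.6%) and in 7.84% of the 9393 promoters of tested genes, 9.16% of those of all falls and 7.14% of those of all rises.

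The receptor's own signalling genes were lower on balance, with 4 of 22 rising and 14 falling (median -0.44, -0.66 with the share subtracted), and as a sum they stood at 0.844, 0.801, 0.782 and 0.773 of the same-run unstimulated level. Cd3e fell by 0.57 and Plcg1, the phospholipase of the calcium branch, by 1.05 on the log2 scale (adjusted p = 2.6e-07 and 4.4e-06). Zap70 rose from 304 ± 27.4 to 684 ± 65.7 CPM and Cd5, a brake on receptor signalling, from 347 ± 24.7 to 566 ± 59.1 CPM. Cd28 itself rose from 282 ± 21.1 to 568 ± 53.5 CPM (adjusted p = 1.2e-09). Of 24 autophagy genes 7 rose and 14 fell (median -0.39), with Ulk2 and Tfeb down by 1.24 and 1.36 on the log2 scale and Wipi2 up by 0.61 (adjusted p = 1.8e-07, 1.6e-07 and 3.6e-07).

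B cell markers were not uniform. Of 18, 1 rose, 7 fell and 10 were not called, where 34.5% of all tested genes rose and 38.8% fell. With the run as a replicate block 2 of the markers rose and 16 fell. Cd79b was at 0.263, 0.412, 0.388 and 0.239 of the same-run level and Ms4a1, which encodes CD20, at 0.556, 0.71, 0.506 and 0.579. Neither was called (adjusted p = 0.097 and 0.29), and both were with the block (adjusted p = 8.6e-06 and 0.00033). Pou2af1, a coactivator of B cells, was the marker that rose, from 34.2 ± 6.27 to 71.7 ± 13 CPM. Neutrophil markers, 5 of 9 falling, were 9 of 9 with the block. The neutrophil gene S100a9 shows how the same-run ratio behaves when the starting level differs: it stood at 110, 4.78, 6.89 and 30.8 CPM before and at 23, 1.76, 1.15 and 7.19 CPM after stimulation, each stimulated value following that of its run (log2 fold change -2.21, adjusted p = 0.077, and -2.04, adjusted p = 1.5e-06, with the block). Without stimulated replicate 1, unstimulated replicate 2 or unstimulated replicate 3 it was called at -3.49, -2.63 and -2.61 (adjusted p = 0.021, 0.044 and 0.049).

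**Figure D5:**
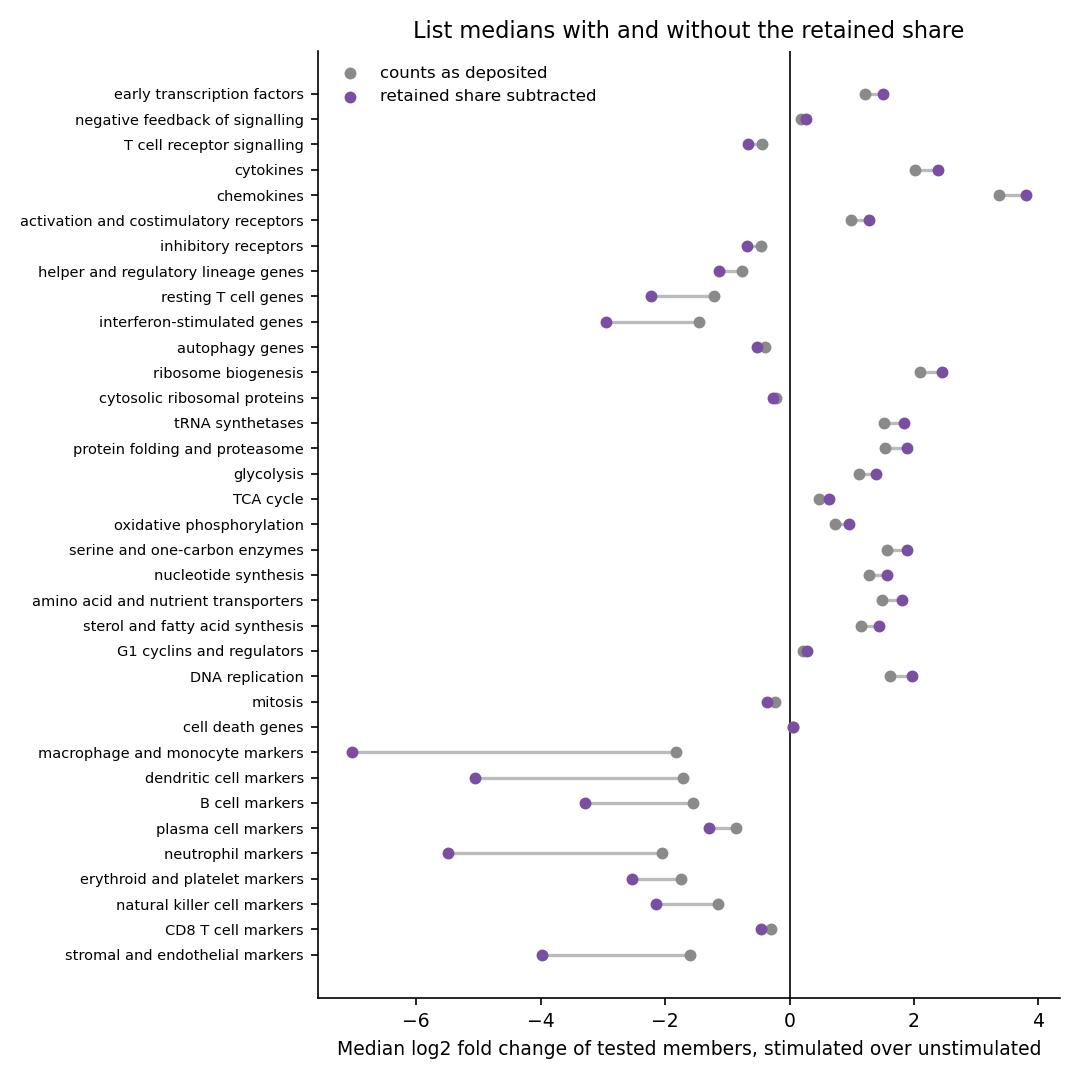
Median log2 fold change (x axis) of the tested members of each of 35 lists, from the counts as deposited (grey) and with the same-run share subtracted (purple). The medians of lists that rose move little, whereas that of macrophage markers moves from -1.82 to -7.03 and that of resting T cell genes from -1.22 to -2.23.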

How the data were processed

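Poly(A) RNA was measured in 8 wild-type libraries, 4 unstimulated and 4 stimulated for 12 h, prepared with a directional kit per the labels' protocols. The authors deposited 1 table of raw read counts per gene and library. Reads were handled with Trimmomatic 0.36, HISAT2 2.1.0, SAMtools and HTSeq 0.9.1 on mm10, per the submitters' processing notes, which also name R 3.4.4 and DESeq2 1.18.1. The annotation and the strand setting of the counting are not given in the sources used here, so reads of overlapping and antisense genes cannot be told apart. The protocol text describes stimulation for every sample, and groups follow each sample's agent label. Lines that name no gene were left out: no-feature reads came to 5.91% to 10.7% and ambiguous reads to 1.15% to 2.32%. Reads that mapped to several places were not counted, at 63 to 91.3 per 100 gene counts.

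Deposited counts were fitted with edgeR 4.0.16 (quasi-likelihood, TMM, a mean per group, all 32 libraries in 8 groups, R 4.3.3), and p-values were adjusted over 12332 genes at a threshold of 0.05. DESeq2 1.42.0 and limma 3.58.1 (voom) were alternatives, beside other scaling, no filter on low counts, only these 8 libraries, the run as a replicate block, the share subtracted, and each replicate left out. The statistics were tested on simulated data with few changed genes, balanced in direction, and no pairing by run. That setting differs from these libraries, so it does not check the scaling or the fit without a block. Replicates of a group differed by more than counting noise (chi-square per degree of freedom 13.9 to 125.5). The numbers pair the libraries: library numbers in the titles form runs of 4, and the deviations of same-run libraries from their group means correlated at 0.559, 0.439, 0.368 and 0.518, against -0.511 to 0.252 between runs. Blocked values stand beside each call they change and each count they move widely.

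The members and lists were chosen with earlier results of these data known. The rule for named genes took, from called genes of at least 10 CPM with no overlap, the 12 largest rises and falls, the 8 largest gains and losses in CPM, and up to 4 per list and direction, beside list members not called. Il3, Il5, Ifng, Tnf, Cd69, Il2ra, S1pr1, Il7r, Pik3ip1, Tcf7, Ifit1, Isg15, Fos, Cd4, Cd28, Foxp3, Cdkn1a, Gapdh, Bcl2, Ccnd1, Il13, Il17a, Il17f, Il22, Socs1, Cish, Cblb, Egr2, Egr3, Fasn and Acaca fall outside it and were chosen after their values were seen. Promoters came from RefSeq (GRCm38.p6), which had 9393 of the tested genes, and other coordinates from GRCm38. All folds are ratios of means of CPM or edgeR log2 fold changes. Some genes are not reported here.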

Additional observations from a re-analysis of the deposited data

Results flagged for a closer look

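In each group of 4 libraries, a library far from the other 3 was looked for by Dixon's test. Of 392 groups of 4 values 25 held such a library, and chance gives about 1 in 20 groups. Unstimulated replicate 1 was the distant library in 7 cases and stimulated replicate 2, which has the highest retained share, in 6. Apart in unstimulated replicate 1 were Bst2 at 111 CPM (the others 63.7 to 68.3), Cycs at 26.4 CPM (the others 17 to 17.4), Isg15 at 57.2 CPM (the others 25.2 to 27.5), Lef1 at 346 CPM (the others 406 to 417), Lta at 17.5 CPM (the others 14.7 to 15.2), Satb1 at 539 CPM (the others 759 to 779) and the sum of erythroid and platelet markers at 320 CPM (the others 43.7 to 77.5). Apart in unstimulated replicate 2 were Cd200 at 35.8 CPM (the others 25.9 to 26.2), Slc2a3 at 65.2 CPM (the others 74.4 to 75.8), Il22 at 0.0508 CPM (the others at 0) and the sum of negative feedback of signalling at 3037 CPM (the others 2436 to 2514). Apart in stimulated replicate 2 were Cd200r1 at 10.1 CPM (the others 5.72 to 6.24), Gar1 at 193 CPM (the others 242 to 245), Ifit1 at 16.9 CPM (the others 7.51 to 8.78), Lta at 35.1 CPM (the others 69 to 69.7), Scd2 at 71 CPM (the others 47.4 to 48.6) and Slc40a1 at 492 CPM (the others 249 to 264). Apart in unstimulated replicate 3 were Fosl1 at 0.0556 CPM (the others at 0) and Il2 at 0.445 CPM (the others 0.711 to 0.764). Apart in stimulated replicate 4 was Foxp1 at 247 CPM (the others 183 to 190). Apart in unstimulated replicate 4 were Il21 at 8.97 CPM (the others 2.69 to 2.99), Il17a at 0.0835 CPM and Il17f at 0.0417 CPM (the others at 0). Apart in stimulated replicate 1 were Tgfb1 at 140 CPM (the others 152 to 154) and the sum of erythroid and platelet markers at 114 CPM (the others 21.7 to 25.4).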

How the results depend on the processing

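Between 8130 and 9923 genes were called over all settings, against 9037, and no call turned direction under any of them. Where the share was subtracted, kept directions follow from the subtraction and are not a check. Leaving out 1 library gave 8517 to 9072 calls, 3901 to 4670 rises and 4277 to 4918 falls. Without stimulated replicate 2 there were 4174 rises and 4898 falls. With the run as a replicate block 4549 genes rose and 4538 fell, and the block changed no other call of a named gene than those given in the text. Subtracting the share together with the replicate block, a setting chosen after seeing the data, gave 4199 rises and 4578 falls. With other choices of reference genes, the share against the mean of the 4 unstimulated libraries was 0.159 to 0.161 in stimulated replicate 1. It was 0.464 to 0.468, 0.219 to 0.238 and 0.213 to 0.216 in replicates 2 to 4. These sets have genes in common with the reported set, so this is not an independent check. Of 161 named genes, 133 kept direction and call under every setting.

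Reversals were in values that had not passed the test and in list medians, and for each the cause was not tested. The largest of them was Il21, at -0.49 with all libraries and 0.13 without unstimulated replicate 4. Under upper-quartile scaling the medians of the feedback and cell death lists were -0.04 and -0.17, and Batf, Bst2, Cd8a, Il2rb, Il4, Nfatc1, Nfkbia, Pdia4 and Top2a stood at -0.05, -0.21, -0.15, -0.20, -0.07, -0.01, -0.16, -0.11 and -0.17. With DESeq2 size factors the cell death median was -0.04, and Bst2, Cd8a, Il2rb, Nfkbia and Top2a were at -0.08, -0.02, -0.07, -0.04 and -0.04. The DESeq2 test gave -0.04, -0.08, -0.02, -0.07, -0.03 and -0.04 for the same 6. With library totals they were -0.04, -0.05, -0.00, -0.06, -0.02 and -0.05. Without the filter Bst2 and Il2rb were both at -0.02. Cd44 was at 0.00 with only these 8 libraries and at 0.01 with the replicate block. With 1 library left out, values ranged from -0.12 to 0.33 for Bst2, -0.21 to 0.03 for Ccna2, -0.07 to 0.23 for Cd8a, -0.74 to 0.13 for Il21, -0.10 to 0.10 for Il2rb, -0.12 to 0.37 for Il4, -0.06 to 0.24 for Nfkbia and -0.11 to 0.31 for Top2a. The ribosomal protein median ranged from -0.38 to 0.05, the latter without unstimulated replicate 1, which also moved the median of all genes by 0.11. Genes with few counts, such as Il4 and Il5, are the least precise.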
